A study of Homo sapiens with 6 samples.

Results

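The 50 genes described here encode the machinery that licenses, fires and copies DNA replication origins, the enzymes that supply deoxynucleotides for it, and the E2F transcription factors and E-type cyclins that switch these genes on. They form a named list, and each gene was taken from the array table as a transcript cluster annotated with that 1 symbol. All 50 had such a cluster, among 18417 genes in all. Where a gene had more than 1 cluster, the one with the highest mean over the 6 arrays was used, which touched UHRF1 alone among the 50.

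The arrays (Affymetrix HuGene-1_0-st) measured RNA of AGS cells, an established human gastric carcinoma line. After 48 h of growth, 3 samples were kept for 24 h with 20 µM celecoxib, a COX-2 inhibitor dissolved in DMSO, and 3 served as controls. The labels do not say if DMSO was added to the controls, so drug and solvent cannot be told apart here. The labels number the samples as biological replicates but also mention pooling of RNA, so p-values reflect only how far these samples scatter, and that scatter may be technical. In RNA from whole cultures, fewer cells in S phase and less replication RNA per cell cannot be told apart.

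Before S phase, the origin recognition complex (ORC) together with CDC6 and CDT1 loads rings of MCM2 to MCM7 onto DNA, a step called licensing, which geminin (GMNN) limits by binding CDT1. CDC45 and the GINS complex then turn the ring into the active helicase, and DNA polymerases alpha, delta and epsilon copy the strands around the sliding clamp PCNA. E2F1 and E2F2 activate many of these genes once cyclin E kinase has helped to inactivate the retinoblastoma protein, whereas E2F7 and E2F8 are repressors. The genes are therefore a common measure of how actively a culture enters and passes S phase.

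The genes were gathered in part as E2F targets, so a high share of E2F motifs in their promoters describes the list and supports nothing about celecoxib. RefSeq windows of 300 bases (GRCh38.p14), from 250 bases before to 50 after an annotated transcription start, were matched by symbol for 44 of the 50 genes, 56 windows in all. The letters searched, on either strand and with overlaps counted, were TTTCCCGC, TTTCGCGC, TTTGCCGC or TTTGGCGC. A match was present in 24 of the 56 windows (42.9%), against 3.31% of all 35116 windows of the table. By gene, 23 of 44 members (52.3%) had a match, and 24 of their 31 matches began within 100 bases of the start.

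The following stretches of 100 bases run 5′ to 3′ on the gene's strand, with each match in capitals. They show the letters around the match. Among the genes with a match, they belong to those with the smallest p on each side, 3 with lower values (GINS1, CDT1, UHRF1) and 3 with higher values (GINS3, GMNN, RFC3). E2F1 and MCM6 were added after their values were seen, as examples of windows with several matches. The windows of MCM2, MCM3 and MCM7 also hold several matches and are not printed.
GINS1, chr20:25407588-25407687, plus strand: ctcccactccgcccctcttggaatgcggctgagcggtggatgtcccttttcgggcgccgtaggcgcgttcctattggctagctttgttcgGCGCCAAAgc
CDT1, chr16:88803704-88803803, plus strand: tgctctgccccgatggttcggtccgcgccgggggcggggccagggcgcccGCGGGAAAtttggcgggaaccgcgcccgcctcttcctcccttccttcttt
UHRF1, chr19:4909416-4909515, plus strand: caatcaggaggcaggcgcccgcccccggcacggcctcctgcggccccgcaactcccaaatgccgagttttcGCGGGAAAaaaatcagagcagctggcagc
GINS3, chr16:58392386-58392485, plus strand: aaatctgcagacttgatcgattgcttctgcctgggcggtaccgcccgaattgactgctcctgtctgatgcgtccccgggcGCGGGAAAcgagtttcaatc
GMNN, chr6:24775328-24775427, plus strand: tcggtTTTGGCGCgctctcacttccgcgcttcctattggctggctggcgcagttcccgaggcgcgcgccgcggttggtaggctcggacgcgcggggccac
RFC3, chr13:33818064-33818163, plus strand: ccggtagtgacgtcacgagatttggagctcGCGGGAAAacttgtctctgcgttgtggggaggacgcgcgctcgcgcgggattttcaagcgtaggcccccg
E2F1, chr20:33686371-33686470, minus strand: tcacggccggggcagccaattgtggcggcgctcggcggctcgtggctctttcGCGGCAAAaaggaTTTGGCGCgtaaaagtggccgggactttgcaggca
MCM6, chr2:135876504-135876603, minus strand: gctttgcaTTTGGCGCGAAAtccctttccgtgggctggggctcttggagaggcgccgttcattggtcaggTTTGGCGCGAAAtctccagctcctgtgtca

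Counted from the start site as base 1, with no base 0, the match in the printed stretch lay at bases 6 to 13 in GINS1, at -35 to -28 in CDT1, at -14 to -7 in UHRF1, at -5 to 3 in GINS3, at -80 to -73 in GMNN and at -55 to -48 in RFC3. UHRF1 has another match, at -160 to -153 of a second start site. E2F1 had matches at -33 to -26 and at -20 to -13. The MCM6 stretch, which runs from -160 to -61, holds 4 matches in 2 overlapping pairs of opposite strands. These are matches of letters and were not measured as binding sites. In the plot of motif positions, most matches sit close to the start in windows of genes with lower and with higher values alike.

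**Figure D1:**
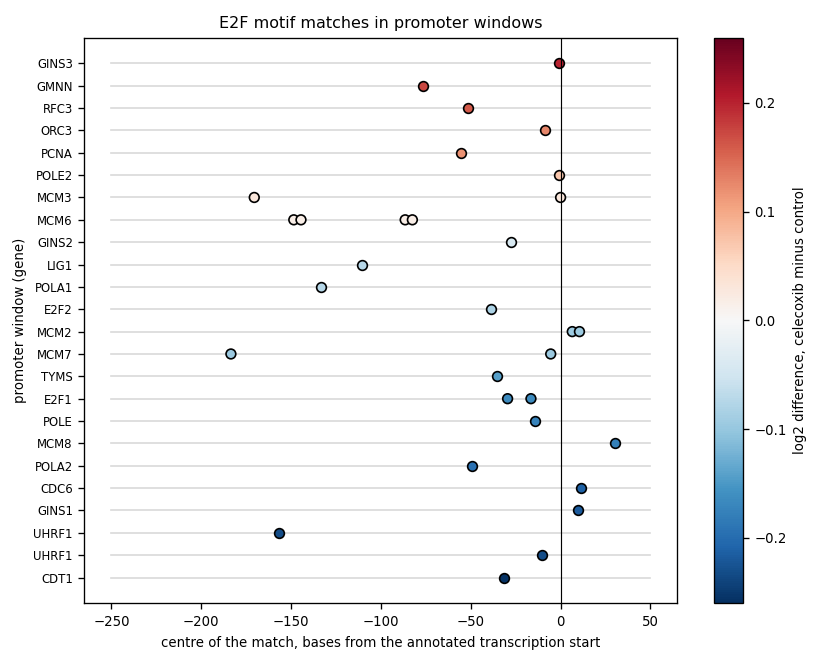
Position of each E2F motif match (x axis, bases from the annotated start) in the 24 promoter windows of the listed genes that hold one (y axis), coloured by the gene's log2 difference, celecoxib minus control. Of the 31 matches, 24 begin within 100 bases of the start.

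Other promoter letters were counted in the same windows and in 11 windows of a short list of G2 and mitosis markers. A CCAAT box (CCAAT, either strand) was present in 58.9% of the members' windows, in 34.6% of all windows and in 11 of 11 windows of the markers. The GC box (GGGCGG) was present in 75.0%, against 44.95% of all windows, 57.3% of windows of the genes tested and 10 of 11 windows of the markers. The core letters of the cell cycle homology region, or CHR (TTTGAA), known from promoters of mitotic genes, were in 1 of 56 windows (1.79%), against 15.2% of all windows and 6 of 11 windows (54.5%) of the G2 and mitosis markers.

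Across the whole set, 25 replication genes had lower and 25 had higher means with celecoxib than in the controls. That even split did not hold without celecoxib 1, where 34 genes were lower and 16 higher, and 13 of the 50 changed sign. The median difference was -0.0261 without control 2 and -0.0275 without celecoxib 1. Whether the change of the split is particular to celecoxib 1 was not tested. Signs were not counted for leaving out any other single array, nor over all genes without celecoxib 1. Expression is given as log2 values normalized by the authors, and every difference is celecoxib minus control. The differences ran from -0.26 (CDT1) to 0.24 (POLD3), with a median of -0.02 against -0.01 over all genes tested. None of the 50 passed an adjusted p of 0.05 in the linear model of limma over all genes, where 0.141% of genes did, and the smallest adjusted p among them was 0.288. The 95% intervals of all 50 differences lay between -0.49 and 0.45, and for 26 genes between -0.3 and 0.3.

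At an unadjusted p under 0.05, 5 of the 50 genes were lower (10%, against 4.44% of all genes) and 3 were higher (6%, against 6.87%). The lower genes were POLD2, GINS1, CDT1, RFC2 and POLD1, and the higher ones POLD3, GINS3 and PRIM1. These counts changed when single arrays were left out. There was 1 lower gene without control 1, 2 without control 2 or celecoxib 3 and 8 without celecoxib 2. Higher genes numbered 0 without control 2 or celecoxib 1 and 1 without control 1 or control 3. Fewer arrays also lower the precision, so a lower count need not mean smaller differences. Without control 1, POLD2, GINS1, CDT1, RFC2 and POLD1 stood at -0.232, -0.207, -0.268, -0.206 and -0.21. With all arrays they stood at -0.231, -0.217, -0.257, -0.193 and -0.217. In 9 genes every celecoxib value lay below every control value (18%, against 7.95% of all genes), and in 4 every one lay above (8%, against 11.1%). With fewer arrays such separation is easier to reach, and the counts were up to 18 below (without celecoxib 2), 17 without control 3, and up to 10 above (without celecoxib 3). The shares of all genes were not counted with fewer arrays, so the counts with arrays left out have no background to be read against. The typical size of a difference, 0.10 at the median of the members, was near the spread between replicates, a pooled SD of 0.10 at the median. In 23 of the 50 the difference was smaller than the gene's own pooled SD. The plot of differences by role shows both directions within every role that held 4 or more genes.

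**Figure D2:**
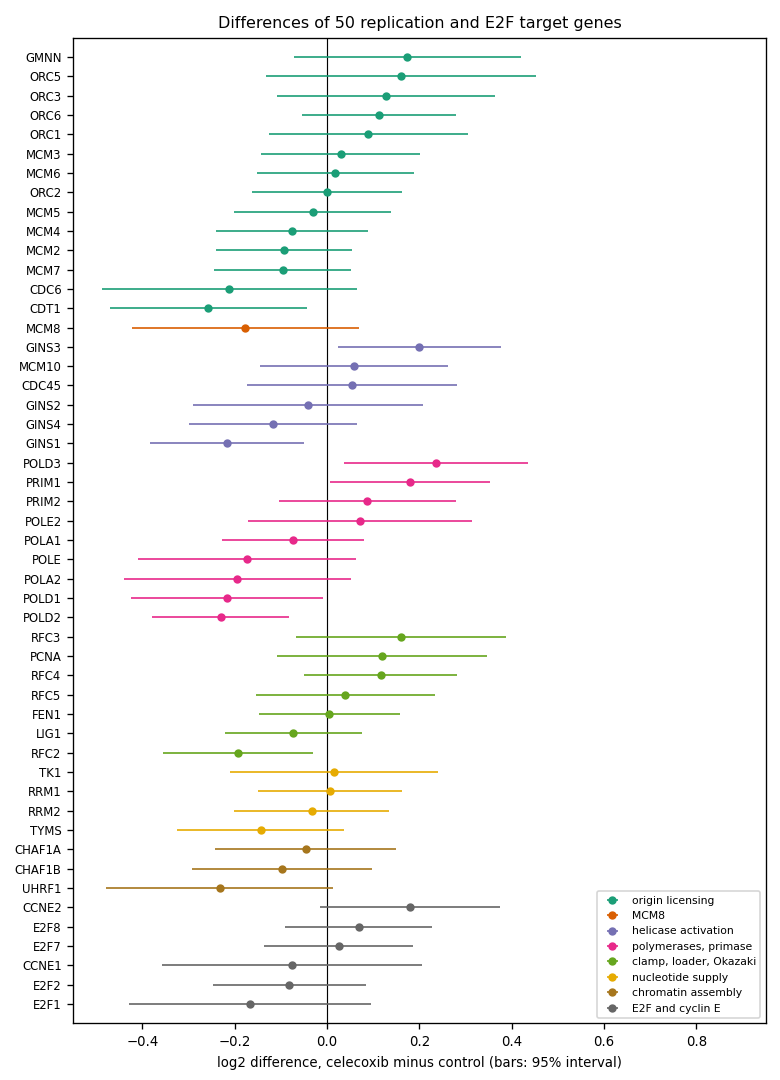
Log2 difference, celecoxib minus control (x axis), of each of the 50 genes (y axis), coloured by role, with 95% intervals from the limma fit of 3 against 3 arrays. Intervals leave 0 on the low side for POLD2, GINS1, CDT1, RFC2 and POLD1 and on the high side for POLD3, GINS3 and PRIM1, with no adjustment for the number of genes.

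Licensing genes were measured through 14 members, 6 with lower and 8 with higher means and a median difference of 0.01. CDT1, the MCM loading factor, read 7.36, 7.52 and 7.26 on the control arrays and 7.14, 7.22 and 7.002 on the celecoxib arrays. All 3 celecoxib values lay below the controls, although celecoxib 2 came within 0.04 of control 3. The difference was -0.26 ± 0.09 (SE, n = 3 per group), or 1.195-fold lower, with a limma adjusted p of 0.374. Geminin, which restrains CDT1, had a higher mean with celecoxib, with control values of 8.18, 8.04 and 8.30 and celecoxib values of 8.54, 8.21 and 8.29. Only celecoxib 1 exceeded all controls, and the difference of 0.17 ± 0.11 for GMNN (limma adjusted p = 0.553) was 0.08 without that array.

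CDC6, the ATPase that works with CDT1, read 9.07, 9.02 and 8.79 in the controls and 8.77, 8.95 and 8.54 with celecoxib. The groups overlapped, and its difference of -0.21 ± 0.12 had the interval that reached lowest of all members, from -0.49 to 0.06. The 5 ORC subunits among the members had differences of 0.00 (ORC2), 0.09 (ORC1), 0.11 (ORC6), 0.13 (ORC3) and 0.16 (ORC5), all with overlapping groups. ORC4, measured but not on the list, stood at 0.22 ± 0.10 (limma adjusted p = 0.447), also with overlap. Without celecoxib 1, ORC5 stood at 0.05, ORC3 at 0.03 and ORC1 at -0.002, and ORC6 at 0.10. ORC5 varied more between replicates than any other member, with a pooled SD of 0.20. It read 9.23, 9.06 and 9.44 in the controls and 9.63, 9.26 and 9.32 with celecoxib, so control 2 and celecoxib 1 were its extremes.

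The 6 subunits of the MCM2 to MCM7 helicase ring differed by at most 0.10 in size, with 4 lower, 2 higher and a median of -0.05. MCM7 read 10.02, 9.99 and 10.02 in the controls and 9.88, 9.91 and 9.95 with celecoxib. MCM2 read 8.34, 8.37 and 8.31 against 8.22, 8.27 and 8.24. In these 2 subunits the groups did not overlap, with differences of -0.10 ± 0.06 and -0.09 ± 0.06 (limma adjusted p = 0.582 and 0.589). Of all genes, 7.95% were lower with groups that did not overlap. MCM4 (-0.08), MCM5 (-0.03), MCM6 (0.02) and MCM3 (0.03) overlapped between groups, and their 95% intervals together spanned -0.24 to 0.20. MCM8, a relative of the ring subunits that acts in recombination repair, differed by -0.18 ± 0.11, with its lowest value, 9.89, on celecoxib 1 and the other 5 arrays between 10.16 and 10.36, and by -0.07 without that array.

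Helicase activation was represented by CDC45, the 4 GINS subunits and MCM10, a factor needed to start unwinding. GINS1 read 10.60, 10.58 and 10.57 in the controls and 10.32, 10.47 and 10.31 with celecoxib. The controls lay within 0.04 of each other and all celecoxib values were lower, a difference of -0.22 ± 0.07 (1.16-fold lower, limma adjusted p = 0.354). GINS3, a subunit of the same complex, read 7.79, 7.77 and 7.78 in the controls and 8.09, 7.98 and 7.87 with celecoxib. Here all celecoxib values were higher, by 0.20 ± 0.08 (1.15-fold higher, adjusted p = 0.401).

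GINS4 read 6.84, 6.85 and 6.81 in the controls and 6.77, 6.79 and 6.58 with celecoxib, so its groups did not overlap, with a difference of -0.12 ± 0.08. GINS2 (-0.04 ± 0.11), CDC45 (0.05 ± 0.10) and MCM10 (0.06 ± 0.09) overlapped. The helicase genes did not share a direction. Their median was 0.01, with 3 lower and 3 higher.

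Of the 9 polymerase and primase genes, 2 were lower and 2 higher at an unadjusted p under 0.05, against 4.44% and 6.87% of all genes, with both directions inside polymerase delta. POLD2, an accessory subunit of DNA polymerase delta, read 9.56, 9.55 and 9.57 in the controls and 9.37, 9.30 and 9.31 with celecoxib. The gap between the groups was wider than the range inside either, with a difference of -0.23 ± 0.06 (1.17-fold lower, limma adjusted p = 0.288). POLD1, the catalytic subunit, read 7.97, 7.99 and 7.92 against 7.56, 7.80 and 7.87, a difference of -0.22 ± 0.09 (adjusted p = 0.428) to which celecoxib 1 gave the lowest value. POLD3, the accessory subunit that helps to bind PCNA, read 8.83, 8.67 and 8.68 against 9.10, 8.92 and 8.87. All its celecoxib values were higher, by 0.24 ± 0.09 (1.18-fold, adjusted p = 0.380).

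PRIM1, the catalytic subunit of primase, read 8.79, 8.71 and 8.88 in the controls and 9.02, 9.01 and 8.91 with celecoxib. The lowest celecoxib value lay just above the highest control, and the difference was 0.18 ± 0.08 (limma adjusted p = 0.431). PRIM2, the other primase subunit, differed by 0.09 ± 0.08. The polymerase alpha subunits POLA1 and POLA2 stood at -0.07 ± 0.07 and -0.19 ± 0.11, and the polymerase epsilon subunits POLE and POLE2 at -0.17 ± 0.10 and 0.07 ± 0.11. The groups of these 5 genes overlapped, and without celecoxib 1 POLA2 stood at -0.11, POLE at -0.10, PRIM2 at 0.03 and POLE2 at -0.04.

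The clamp, its loader and the enzymes that join Okazaki fragments had 2 lower and 5 higher means. RFC2, a subunit of the clamp loader, read 9.28, 9.37 and 9.28 in the controls and 9.17, 9.13 and 9.05 with celecoxib, all below the controls. Its difference was -0.19 ± 0.07 (1.14-fold lower, limma adjusted p = 0.379). The loader subunit RFC3 read 9.77, 9.65 and 9.75 against 10.09, 9.77 and 9.78, with every celecoxib value higher but the lower 2 only by 0.02 or less above control 1. Its difference was 0.16 ± 0.10 (adjusted p = 0.555), and 0.06 without celecoxib 1. RFC4 (0.12 ± 0.07) and RFC5 (0.04 ± 0.08) overlapped.

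PCNA read 10.33, 10.12 and 10.30 in the controls and 10.54, 10.27 and 10.30 with celecoxib, a difference of 0.12 ± 0.10. It was 0.03 without celecoxib 1 and -0.03 without control 2 as well. FEN1, the flap endonuclease, was at 0.01 ± 0.07. LIG1, the replicative ligase, had groups that did not overlap, with controls of 8.07, 8.08 and 8.02 and celecoxib values of 8.004, 7.95 and 7.99, and a difference of -0.07 ± 0.06 (limma adjusted p = 0.677).

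**Figure D3:**
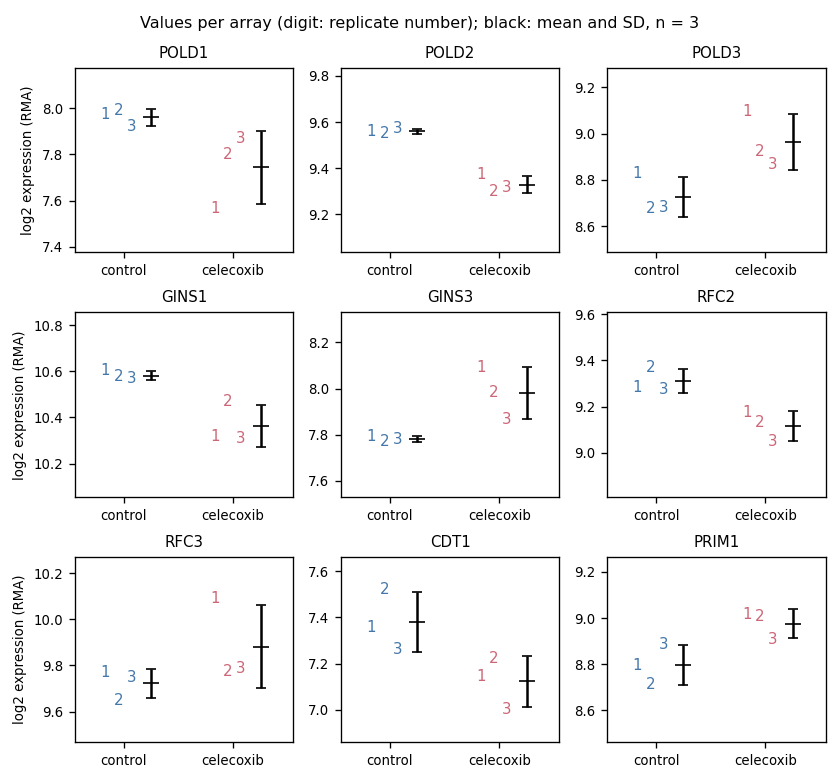
Log2 expression (y axis) on each array for 9 genes, with the digit giving the replicate number, controls at the left and celecoxib at the right, and black marks for mean and SD (n = 3). Each panel spans 0.8 log2 units. POLD1, POLD2, GINS1, RFC2 and CDT1 lie lower with celecoxib, and POLD3, GINS3, RFC3 and PRIM1 higher.

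Subunits of the same complex were set against each other within each array. POLD3 minus POLD2 was -0.73, -0.88 and -0.89 in the controls and -0.27, -0.38 and -0.45 with celecoxib, a shift of 0.47. GINS3 minus GINS1 was -2.81, -2.81 and -2.79 in the controls and -2.23, -2.48 and -2.44 with celecoxib, a shift of 0.42. RFC3 minus RFC2 shifted by 0.35, from 0.41 ± 0.12 to 0.76 ± 0.14 (SD, n = 3). The absolute sizes of these gaps depend on the probes, and the shift between groups is the quantity that can be read. The pairs were picked after the values were seen, so no test is given.

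Of the 4 nucleotide genes, 2 had lower and 2 higher means, with a median of -0.01, and all groups overlapped. The subunits of ribonucleotide reductase, which makes deoxynucleotides, stood at 0.01 ± 0.07 (RRM1) and -0.03 ± 0.07 (RRM2), and thymidine kinase TK1 at 0.01 ± 0.10 (-0.07 without celecoxib 1). RRM1 read 10.13, 10.07 and 10.18 in the controls and 10.18, 10.11 and 10.11 with celecoxib, and RRM2 read 9.13, 9.05 and 9.13 against 9.05, 9.16 and 8.996. The interval of the difference was -0.15 to 0.16 for RRM1 and -0.20 to 0.14 for RRM2. Thymidylate synthase TYMS read 11.13, 11.19 and 10.98 against 10.93, 11.01 and 10.92, with 1 control inside the celecoxib range and a difference of -0.14 ± 0.08 (limma adjusted p = 0.510).

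The 3 genes that restore chromatin behind the fork had lower means, but without celecoxib 1 CHAF1A turned to 0.03, and UHRF1 stood at -0.14. UHRF1, which recruits the maintenance DNA methyltransferase to copied DNA, read 8.20, 8.29 and 8.23 in the controls and 7.82, 8.23 and 7.97 with celecoxib. Celecoxib 2 lay among the controls, and the difference was -0.23 ± 0.11 (limma adjusted p = 0.454). Its second, dimmer cluster differed by -0.09. The histone chaperone subunits CHAF1A and CHAF1B stood at -0.05 ± 0.09 and -0.10 ± 0.09 with overlapping groups.

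Among the regulators, the activator E2F1 read 8.48, 8.53 and 8.52 in the controls and 8.07, 8.50 and 8.46 with celecoxib. Celecoxib 1 alone was far below the rest, and the other celecoxib values sat within or just under the controls, giving -0.17 ± 0.11 (limma adjusted p = 0.588), and -0.03 without celecoxib 1. E2F2 differed by -0.08 ± 0.07, and the repressors E2F7 and E2F8 by 0.03 ± 0.07 and 0.07 ± 0.07. Cyclin E1 (CCNE1) read 9.06, 9.15 and 8.80 against 8.74, 9.12 and 8.92, a difference of -0.08 ± 0.12. Cyclin E2 (CCNE2) read 8.67, 8.51 and 8.60 against 8.90, 8.67 and 8.75, a difference of 0.18 ± 0.09 (adjusted p = 0.461). All 6 regulators overlapped between groups.

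Celecoxib 1 stood apart in these genes. It held the highest of the 6 values in 23 of the 50 genes (46%), against 27.4% of all genes, and the lowest in 12 (24%, against 22.5%). Relative to the mean of the other celecoxib arrays it ran from -0.41 for E2F1 to 0.34 for ORC5. Control 2 was lowest in 16 members (32%, against 20.2% of all genes) and highest in 13. Celecoxib 3 was highest in 0 members and lowest in 15 (30%, against 12.9%). The heat map of levels by array shows these columns.

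**Figure D4:**
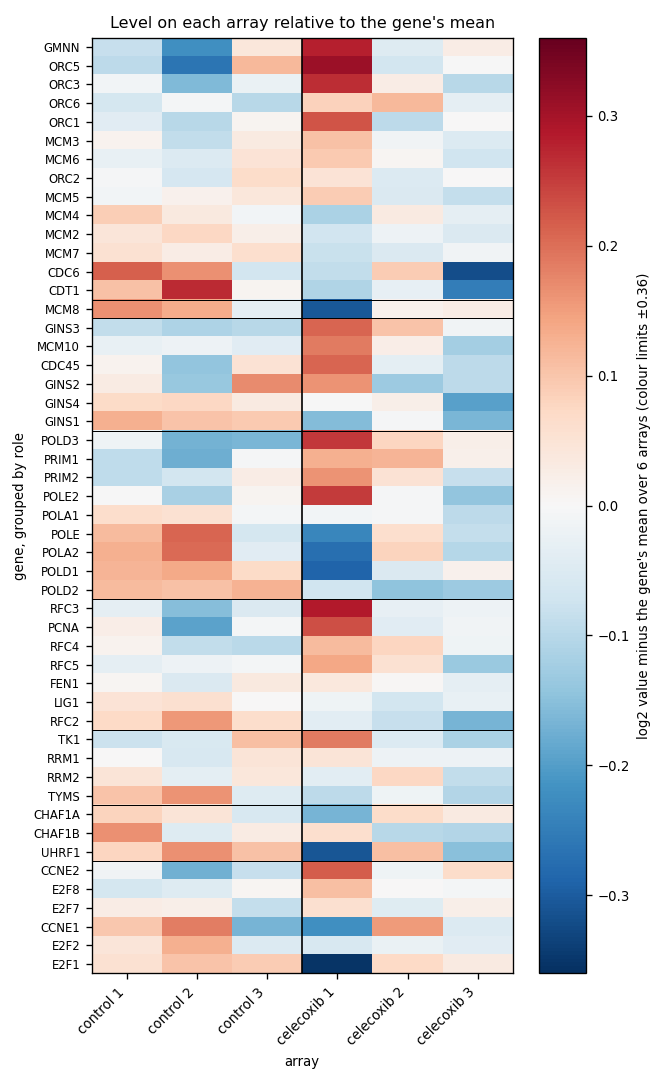
Log2 value of each gene (rows, grouped by role) on each array (columns) minus that gene's mean over the 6 arrays, with a vertical line between control and celecoxib. Celecoxib 1 has the strongest colours in both directions, with E2F1 lowest and ORC5 highest.

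The median level of 195 small nuclear and nucleolar RNAs was 7.11, 6.98 and 7.13 in the controls and 7.49, 7.21 and 7.17 with celecoxib. It was highest on celecoxib 1, but all celecoxib arrays lay above all controls. A fit with this level therefore cannot tell its part from that of the treatment. The part of the small RNA level in the result was not tested beyond a fit with this level as a covariate. In that fit GMNN and RFC3 turned to -0.06 each. POLD1 stood at -0.04, UHRF1 at -0.06, CCNE2 at 0.03 and POLD3 and GINS3 at 0.09, whereas POLD2 (-0.27), CDT1 (-0.23), RFC2 (-0.23) and GINS1 (-0.19) stayed within 0.05 of their values without it. There 4 members were lower and 0 higher at an unadjusted p under 0.05. The shares of all genes were not counted in that fit or with arrays left out. Without celecoxib 1, also 4 were lower and 0 higher, POLD2 (-0.25), CDT1 (-0.27), RFC2 (-0.22) and GINS1 (-0.19) kept their size, whereas POLD1 stood at -0.13, POLD3 at 0.17 and RFC3 at 0.06. Without control 2 as well, a step added after seeing the data, 1 was lower and 0 higher.

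Members were also described by their promoters. Of the 23 with an E2F motif, 15 were lower and 8 higher (median -0.08), and of the 21 with a window and no match, 7 were lower and 14 higher (median 0.01). Without celecoxib 1 the counts were 18 lower and 5 higher with a match, and 13 lower and 8 higher without one. Among all genes tested, 380 of 784 with a match were lower (48.5%) and 6911 of 13455 without one (51.4%). No test was run on these counts.

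Further replication and E2F pathway genes, 103 measured of 110 listed, gave 56 lower and 47 higher means, and none passed the adjusted threshold. Among 30 other replication factors, 4 were lower and 2 higher at an unadjusted p under 0.05, against 4.44% and 6.87% of all genes. The single-strand binding subunit RPA2 read 7.09, 7.13 and 7.002 in the controls and 7.85, 7.35 and 7.41 with celecoxib (0.46 ± 0.13, limma adjusted p = 0.288). MCM9, the partner of MCM8, stood at 0.32 ± 0.09, and TICRR, which helps to load CDC45, at -0.23 ± 0.08. Of 13 measured nucleotide genes, 7 had lower and 6 higher means. At an unadjusted p under 0.05, 0 were lower and 2 higher, against 4.44% and 6.87% of all genes. These 2 were RRM2B, the p53-regulated ribonucleotide reductase subunit (0.26 ± 0.06), and the mitochondrial thymidine kinase TK2 (0.29 ± 0.09). DCK, deoxycytidine kinase, stood at 0.18 ± 0.08.

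In the 37 measured regulators of the retinoblastoma and E2F circuit, 4 were lower and 3 higher at an unadjusted p under 0.05, against the same 4.44% and 6.87%. MYBL2, an E2F target that in turn drives G2 genes, read 10.31, 10.45 and 10.18 in the controls and 9.89, 10.03 and 9.90 with celecoxib. All celecoxib values were lower, by -0.37 ± 0.09 (1.30-fold lower, limma adjusted p = 0.228). FZR1, an activator of the anaphase-promoting complex, stood at -0.31 ± 0.10, and LIN54, the DNA-binding subunit of the complex that reads CHR letters, at 0.21 ± 0.07. Of 23 other E2F targets, 12 had lower and 11 higher means. At an unadjusted p under 0.05, 1 was lower and 0 higher, against 4.44% and 6.87% of all genes. That gene was the nuclear envelope gene TMPO (-0.18 ± 0.07). LMNB1 (-0.19 ± 0.08) and DNMT1 (-0.14 ± 0.07) had the next smallest p.

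The 10 markers of G2, mitosis and proliferation, which were known from earlier results of these data to be low, had a median of -0.22 with 9 lower. At an unadjusted p under 0.05, 6 were lower and 0 higher, against 4.44% and 6.87% of all genes, and 0 passed the adjusted threshold in limma. Because that list was known to be low, its count is a description. MKI67, the gene of the Ki-67 antigen, read 10.98, 10.93 and 10.96 in the controls and 10.73, 10.75 and 10.73 with celecoxib, a difference of -0.22 ± 0.06 (limma adjusted p = 0.2998). KIF20A, a kinesin of late mitosis, stood at -0.37 ± 0.08 and CDC20 at -0.29 ± 0.08. By array, the median deviation of this list from each gene's mean was 0.14, 0.07 and 0.12 in the controls and -0.001, -0.11 and -0.15 with celecoxib. For the 50 replication genes it was 0.02, -0.02 and 0.01 against 0.05, -0.005 and -0.05, so those groups overlapped. The difference between the 2 lists was not tested.

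**Figure D5:**
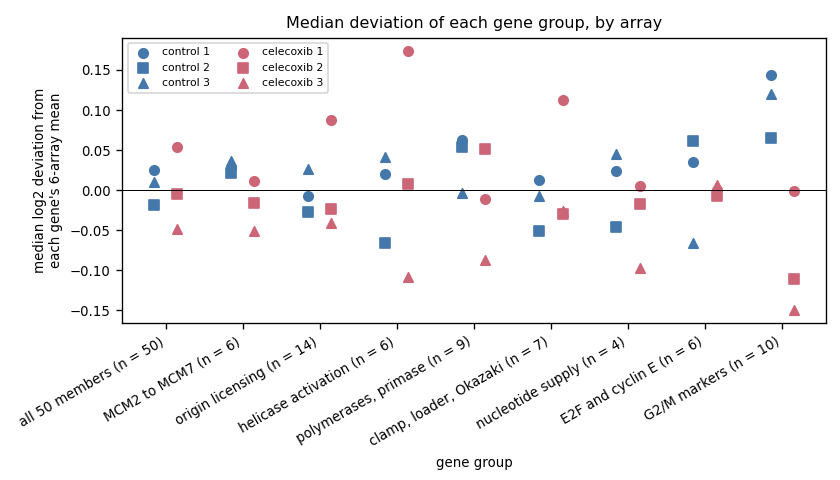
Median log2 deviation from each gene's 6-array mean (y axis) for the 50 genes, for MCM2 to MCM7, for functional groups of 4 or more genes and for 10 G2 and mitosis markers (x axis), 1 point per array, controls blue and celecoxib red, with symbols for the replicate number. The groups separate for the G2 and mitosis markers and overlap for all 50 members. For MCM2 to MCM7 they separate only narrowly, with control 2 at 0.02 and celecoxib 1 at 0.01. By the mean level of MCM2 to MCM7 the groups overlap (8.975 on control 2 and 8.977 on celecoxib 1).

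As a check of the label, 8 epithelial markers had mean levels from 6.502 to 12.5, with EPCAM at 11.9 and KRT8 at 12.6 and 12.5 in control and celecoxib. Within that list VIL1 stood at -0.47 ± 0.08 (limma adjusted p = 0.0966), KRT18 at -0.21 ± 0.07 and CDH17 at 0.17 ± 0.07, each with groups that did not overlap. The leukocyte marker PTPRC stood at 3.95 and 4.01 and CD68 at 8.13 and 8.14, and the fibroblast genes DCN at 3.51 and 3.53 and COL1A1 at 7.74 and 7.61. Levels of different probes cannot be ranked against each other. The mean of the 8 epithelial markers was 10.52, 10.53 and 10.53 on the control arrays and 10.42, 10.45 and 10.48 on the celecoxib arrays, without overlap. Of these markers, 4 had lower and 4 higher means with celecoxib. The means per array of the other cell types overlapped between the groups. Those means ran from 5.51 to 5.60 for 6 fibroblast, 5.97 to 6.25 for 6 immune and 5.43 to 5.53 for 5 endothelial markers. Of the fibroblast genes, 2 had lower and 4 higher means with celecoxib. COL1A1 (-0.12 ± 0.07) and PDGFRB (-0.13 ± 0.08) were lower with groups that did not overlap, and LUM stood at 0.24 ± 0.10 with overlap. The median of an array over all genes lay between 7.26 and 7.27.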

How the data were processed

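The values used are log2 levels of 33297 transcript clusters on 6 arrays, deposited as 1 table, which the authors made with RMA in Affymetrix Expression Console 1.1, per the submitters' processing notes. RMA subtracts background, forces all arrays to 1 distribution and summarises probes, so a shift of total RNA per cell would not show. Scanner files, slides and scan dates were not used here, so detection over background and batches could not be set. Of the clusters, 19460 had 1 gene symbol in the platform annotation, 1754 had several and 12083 were unnamed here. The cluster with the highest mean stood for a gene (18417 genes, no filter on signal).

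The 3 celecoxib and 3 control arrays were compared with lmFit and eBayes of limma 3.58.1 (R 4.3.3), two-sided, with Benjamini-Hochberg adjustment over the 18417 genes and a threshold of 0.05. The test was checked on simulated data. Errors are standard errors of the fit unless given as SD. The members and lists were chosen with earlier results of these data known. All members are described. Full statistics go to the 6 lower and 6 higher with the smallest p, and other lists give the 3 genes with the smallest p. Other members with values by array were chosen after their values were seen. Same-numbered arrays of the groups were checked for shared deviations. Alternatives were other clusters, filters, normalizations, variance priors, array weights, a replicate block, a small RNA covariate and leaving out arrays. Protein-coding genes only and leaving out 2 arrays together were chosen after seeing the data. Plots used Python 3.11.15 and matplotlib 3.10.9.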

Additional observations from a re-analysis of the deposited data

How the results depend on the processing

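No member passed the adjusted threshold under any of the 20 alternatives. The smallest limma adjusted p of a member there was 0.0896, for POLD2 in the fit with array weights. Directions were followed for 12 members, the 6 lower and 6 higher ones with the smallest p, a choice that favours stable directions. Filters, variance priors, single clusters and the replicate block leave a difference unchanged, so directions could not change there. Among other members, ORC2 kept its direction in 11 of 20 alternatives, MCM3, FEN1, RRM1 and TK1 in 13, and some, such as ORC6 and MCM7, in all 20. Of 240 values of the 12 members, 238 kept their direction. GMNN (-0.0558) and RFC3 (-0.0562) reversed with small RNA level as a covariate. That covariate lay higher on every celecoxib array than on any control. It also moved the members' median to -0.0657 and the count of higher members at an unadjusted p under 0.05 from 3 to 0. Array weights raised the count of lower members from 5 to 10, with a weight of 5.85 for control 1 and 0.37 to 1.21 for the other arrays. The shares of all genes at an unadjusted p under 0.05 were counted in the main fit only. No change of such a count under an alternative can therefore be read as particular to the members. Leaving out 1 array gave 1 to 8 lower members, 0 to 3 higher members and a median from -0.0275 to 0.00889. Without control 1 the counts were 1 lower and 1 higher, without control 2 they were 2 and 0, without celecoxib 3 they were 2 and 3, and without celecoxib 2 they were 8 and 2. Without control 3 they were 7 and 1. Without control 2 and celecoxib 1 together they were 1 lower and 0 higher. Renewed quantile normalization and cyclic loess gave medians of -0.0438 and -0.0421. With the replicate number as a replicate block, 7 members were lower and 3 higher. The labels give same-numbered arrays only a number in common, and correlations of their deviations were -0.02, 0.49 and 0.01. The 0.49, for control 2 and celecoxib 2, was the highest of all pairs. Not every array correlated best with its own number, as control 3 did so with celecoxib 1 (0.41). Whether the arrays were paired is therefore not settled. The number of arrays limits the precision.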
